A study of Mus musculus with 12 samples.

Results

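The 30 genes described here encode enzymes of cholesterol and fatty acid synthesis, together with proteins that move sterols or control the transcription of these enzymes. They were chosen by name, with no threshold on a measured value, as every non-control probe that carried the name of 1 of them. Sc4mol is the older name of Msmo1. The choice gave 44 of 55681 probes and 30 of the 23890 features tested. All 44 probes were well above background on all 12 arrays, so no gene of the group was lost to the filter on dim probes.

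The cells were RAW264.7, a mouse macrophage line, and each of the 4 groups had 3 arrays. The groups were an siRNA against lincRNA-Tnfaip3 with LPS, the same siRNA without LPS, a scrambled control siRNA with LPS, and that control siRNA without LPS. All groups, controls included, had therefore been exposed to an siRNA, for 24 h, before a final 4 h in which E. coli LPS was present at 1 µg/ml or absent. LPS is a component of the bacterial outer membrane that macrophages sense through the receptor TLR4. The labels give no separate cultures for the arrays of a group, so p-values here measure only the spread between these arrays, which may be technical. No probe carried the name of the siRNA's target, so its loss was not measured, and all results are from 1 cell line.

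A level is given as the log2 of the processed signal minus the 75th percentile of its array, so that 0 is the brightness of that percentile. A change is a difference of such levels with the standard error (SE) of the limma fit, and a gene passed when its Benjamini-Hochberg adjusted p over all features was under 0.05. Levels of different probes cannot be compared, because each probe binds its target with its own efficiency. In RNA from whole cultures, fewer cells that express a gene and less RNA per cell cannot be told apart.

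The arrays lay on 3 slides that did not hold all groups. Control-siRNA arrays 1 and 2 were alone on slide 1 and had fewer probes well above background, 27198 and 29462, than the other arrays, with 32708 to 36367. Slide 3 held only the lincRNA-siRNA LPS arrays 2 and 3. The LPS estimates of a slide-blocked fit come from the 8 arrays of slide 2. Of the control-siRNA arrays without LPS that slide held only array 3, and of the lincRNA-siRNA LPS arrays only array 1. All 10 macrophage markers were well above background on every array. Of 23 markers of other cell types, 6 were so on all 12 arrays. They were the fibroblast gene Dcn, the T cell genes Cd3e and Lck, the B cell gene Cd79a and the endothelial genes Pecam1 and Kdr. Another 9 were so on none: the fibroblast gene Pdgfra, the epithelial genes Epcam and Cdh1, the T cell gene Cd3g, the B cell gene Ms4a1, the adipocyte genes Adipoq and Lep and the hepatocyte genes Alb and Ttr. The summed linear signal of the 9 that passed the filter, in units of the 75th percentile, was 20.3 to 23.1 with the lincRNA siRNA and LPS, 14.7 to 21.6 with that siRNA alone, 17.1 to 24.0 with control siRNA and LPS and 11.9 to 15.4 with control siRNA alone. It was higher with LPS in control-siRNA cells, without overlap. The sum weighs each probe by its brightness, and Kdr had the highest level of the 9 on every array. In control-siRNA cells Kdr read 3.43, 3.67 and 3.84 with LPS, against 3.06, 3.28 and 3.33 without, so the sum mostly follows that probe. Of the 9, only the T cell gene Lck passed the test, with a rise of 0.66 with LPS over both siRNAs (adjusted p = 0.00363), and the part of these genes in the results was not tested. Il6, Cxcl10 and Tnf, genes of the inflammatory response, rose with LPS by 6.43, 4.78 and 1.38 averaged over both siRNAs.

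Cholesterol is built from acetyl-CoA through mevalonate, isoprenoid diphosphates, squalene and lanosterol, and fatty acids from acetyl-CoA through malonyl-CoA. Transcription of both pathways is driven by the SREBP factors, which are held in the endoplasmic reticulum with the escort protein SCAP and the retention proteins INSIG1 and INSIG2 while sterols are plentiful. When sterols fall, SCAP carries SREBP to the Golgi, where proteases free the part that enters the nucleus and binds sterol regulatory elements, often beside a CCAAT box bound by NF-Y. In macrophages these pathways supply membrane and secretory needs, and their activity is known to be tied to innate immune signalling.

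The promoters of the group were read for both motifs, because the genes are described as shared targets of SREBP. RefSeq windows of GRCm38.p6, from 250 bases before to 50 bases after an annotated start, matched 23 of the 30 genes; Fdps, Fdft1, Sqle, Stard4, Scd1, Scd2 and Fads1 had none. The 4 windows below are given up to the start, 5′ to 3′ on the gene's own strand. They are those of Hmgcs1, the only gene with a match to the sterol regulatory element as searched; of Mvd and Cyp51, which are shown as a pair of sterol enzymes with CCAAT matches; and of Elovl6, which is shown as a gene that fell with LPS and held neither motif. Capitals mark matches to TCACNCCAC and to CCAAT on either strand (ATTGG is CCAAT read on the other strand). Positions are chr13:119690101-119690350, plus strand, for Hmgcs1, chr8:122443423-122443672, minus strand, for Mvd, chr5:4104698-4104947, minus strand, for Cyp51 and chr3:129532136-129532385, plus strand, for Elovl6.
Hmgcs1: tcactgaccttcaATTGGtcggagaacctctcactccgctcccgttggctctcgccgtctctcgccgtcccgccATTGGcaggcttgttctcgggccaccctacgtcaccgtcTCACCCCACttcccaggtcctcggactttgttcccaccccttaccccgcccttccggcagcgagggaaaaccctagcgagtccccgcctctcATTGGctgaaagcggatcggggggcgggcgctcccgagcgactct
Mvd: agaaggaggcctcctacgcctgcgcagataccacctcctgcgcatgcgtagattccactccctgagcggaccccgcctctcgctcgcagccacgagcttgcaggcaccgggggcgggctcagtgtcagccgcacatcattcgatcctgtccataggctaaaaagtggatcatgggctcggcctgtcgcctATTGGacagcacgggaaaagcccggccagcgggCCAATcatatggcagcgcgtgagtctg
Cyp51: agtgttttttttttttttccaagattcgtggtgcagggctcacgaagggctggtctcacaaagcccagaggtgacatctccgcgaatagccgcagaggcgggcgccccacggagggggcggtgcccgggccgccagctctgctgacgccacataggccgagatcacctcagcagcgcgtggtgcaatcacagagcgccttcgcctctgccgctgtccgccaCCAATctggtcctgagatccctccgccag
Elovl6: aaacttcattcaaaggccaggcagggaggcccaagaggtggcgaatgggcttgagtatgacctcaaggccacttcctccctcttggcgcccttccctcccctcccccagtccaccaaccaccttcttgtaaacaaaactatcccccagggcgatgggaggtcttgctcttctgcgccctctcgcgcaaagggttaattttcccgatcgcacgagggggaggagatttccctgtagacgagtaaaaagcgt

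A match to the 9-letter element TCACNCCAC, searched on both strands, was found in 1 of the 23 genes (4.35%), Hmgcs1, where it began 137 bases before the start, and in 1.44% of the 27025 genes of the table. CCAAT was found in 18 of the 23 (78.3%) and in 41.1% of all genes; counted by window it was in 62.1% of 29, against 37.4% of 32851 in the table. Mvk held 5 matches, Hmgcs1 and Nsdhl 4 each, and Sc4mol, Hsd17b7, Insig2 and Fasn 3 each. Acat2, Scap, Acaca, Elovl6 and Fads2 held none in their windows. No match of one motif overlapped the other in Hmgcs1, and 1 of its CCAAT matches lies after the start. A match is a description of letters in a window and shows no binding. Other forms of the sterol regulatory element were not searched, so whether the other windows hold one was not tested.

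**Figure D1:**
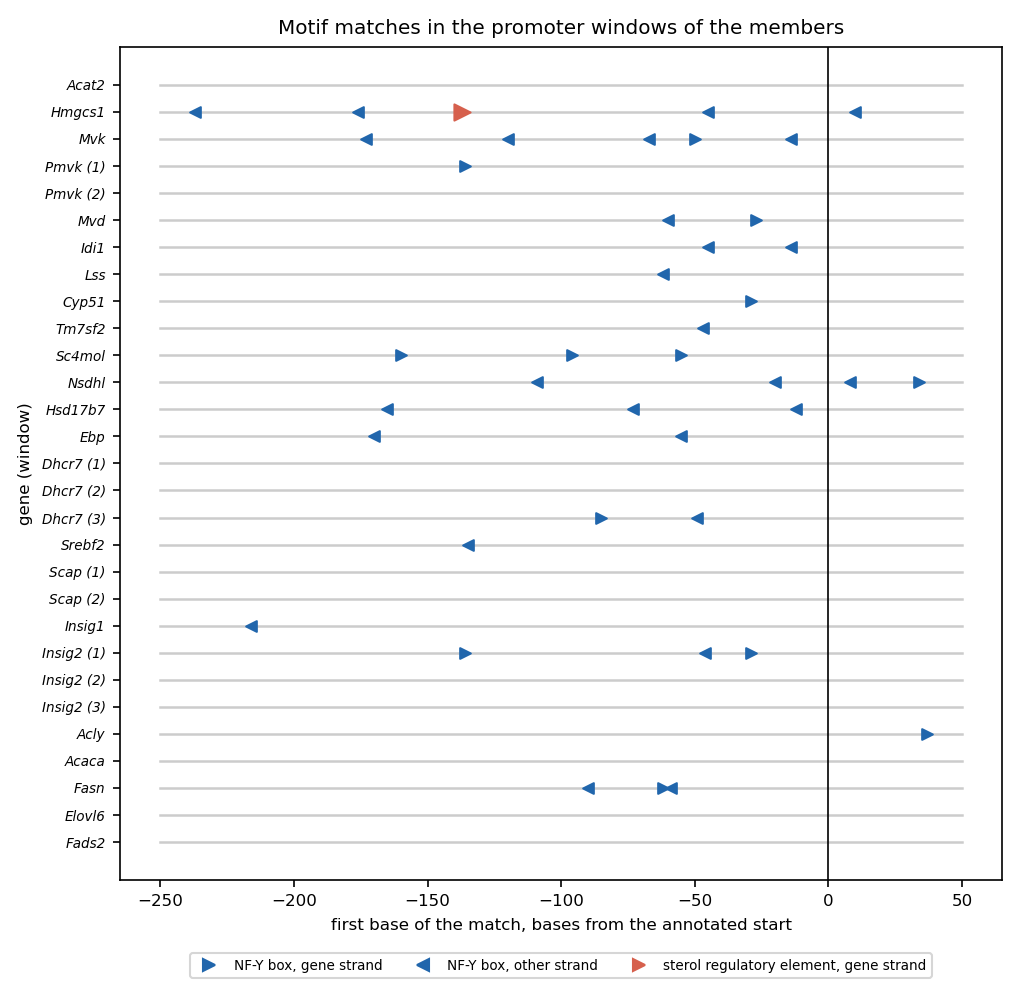
Position of each motif match, in bases from the annotated start, in the promoter windows of the 23 genes that had one (rows, numbered where a gene had several windows); triangles point along the strand that reads the motif. CCAAT matches lie in 18 genes, and the single match to the sterol regulatory element as searched lies in Hmgcs1, 137 bases before the start.

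With LPS, 4 of the 30 genes fell and none rose when both siRNAs were averaged: Stard4, Scd2, Sqle and Elovl6. Stard4 encodes a carrier that moves cholesterol between membranes, Scd2 a desaturase that makes monounsaturated fatty acids, Sqle the squalene epoxidase, an oxygen-dependent control point of sterol synthesis, and Elovl6 an elongase of long-chain fatty acids. On the linear scale Stard4 fell by 27.3% and Elovl6, the smallest of the 4 changes, fell by 20.3%. The count is 13.3% of the group, against 4.01% of all features that passed as lower, 4.21% as higher and 8.22% in either direction. At an unadjusted p under 0.05, 20 of the 30 were lower, against 12.4% of features. Whether or not they passed, 27 of the 30 changes were negative, against 46% of all features, and the median change was -0.27, against 0.03 over all features. The 30 genes moved together between arrays of a group, with a mean pairwise correlation of 0.25, against 0.03 over all features without missing values. Counts of them, here and below, are therefore not counts of independent genes.

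Stard4 was measured by a probe on chromosome 18 (mm9, 33361181 to 33361240). It read 2.20, 2.06 and 2.05 on the lincRNA-siRNA arrays with LPS, against 2.70, 2.45 and 2.47 on those without. On the control-siRNA arrays it read 2.22, 2.15 and 1.89 with LPS, against 2.55, 2.57 and 2.58 without. All 6 arrays with LPS lay below all 6 without. The averaged change was -0.46 ± 0.08 (SE, 6 arrays against 6, limma adjusted p = 0.00706). A second Stard4 probe, whose target spans 33365863 to 33367852 on mm9, gave a different picture. It read 0.58, 0.44 and 0.51 on the lincRNA-siRNA arrays with LPS, against 0.42, 0.61 and 0.47 without, and 0.19, 0.27 and 0.22 on the control-siRNA arrays with LPS, against 0.41, 0.28 and 0.10 without. Its ranges with and without LPS overlapped under both siRNAs, and its change was -0.01 ± 0.07 (adjusted p over all probes kept = 0.935). The Stard4 result therefore holds for 1 of its 2 probes, and the mean of both changed by -0.24 (adjusted p = 0.0464).

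Scd2 was measured on chromosome 19 (mm9, 44381024 to 44381083). It read 6.96, 6.96 and 6.90 on the lincRNA-siRNA arrays with LPS, against 7.52, 7.21 and 7.23 without. On the control-siRNA arrays it read 7.08, 6.82 and 6.82 with LPS, against 7.40, 7.34 and 7.52 without. Again no array with LPS reached any array without it, and the averaged change was -0.45 ± 0.08 (adjusted p = 0.00964), so that Scd2 fell by 26.7% on the linear scale.

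Sqle, on chromosome 15 (mm9, 59162688 to 59162747), read 5.14, 5.11 and 5.04 on the lincRNA-siRNA arrays with LPS, against 5.59, 5.23 and 5.28 without. The control-siRNA arrays read 5.16, 4.70 and 4.93 with LPS, against 5.58, 5.41 and 5.46 without. The 12 arrays did not overlap between the LPS states, and the averaged change was -0.41 ± 0.10 (adjusted p = 0.0306). Only Stard4, Scd2 and Sqle of the 30 were lower on all 6 LPS arrays than on the 6 others, 10% of the group, against 2.2% of features. None was higher on all 6, against 2.96% of features.

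Elovl6, on chromosome 3 (mm9, 129341248 to 129341307), read 2.59, 2.31 and 2.50 on the lincRNA-siRNA arrays with LPS, against 2.83, 2.85 and 2.60 without. The control-siRNA arrays read 2.42, 2.33 and 2.09 with LPS, against 2.55, 2.66 and 2.71 without. The groups did not overlap within either siRNA, but the highest array with LPS exceeded the lowest without. The averaged change was -0.33 ± 0.09 (adjusted p = 0.0491), just inside the threshold. Mvd, the mevalonate diphosphate decarboxylase gene, lay just outside it with a change of -0.42 ± 0.11 (adjusted p = 0.0509). Its probe on chromosome 8 (mm9, 124957750 to 124957809) read 2.56, 2.77 and 2.86 on the lincRNA-siRNA arrays with LPS, against 3.24, 2.89 and 2.79 without, and 2.85, 2.43 and 2.46 on the control-siRNA arrays with LPS, against 3.31, 3.14 and 3.07 without. The Mvd groups overlapped with the lincRNA siRNA and not with the control siRNA.

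**Figure D2:**
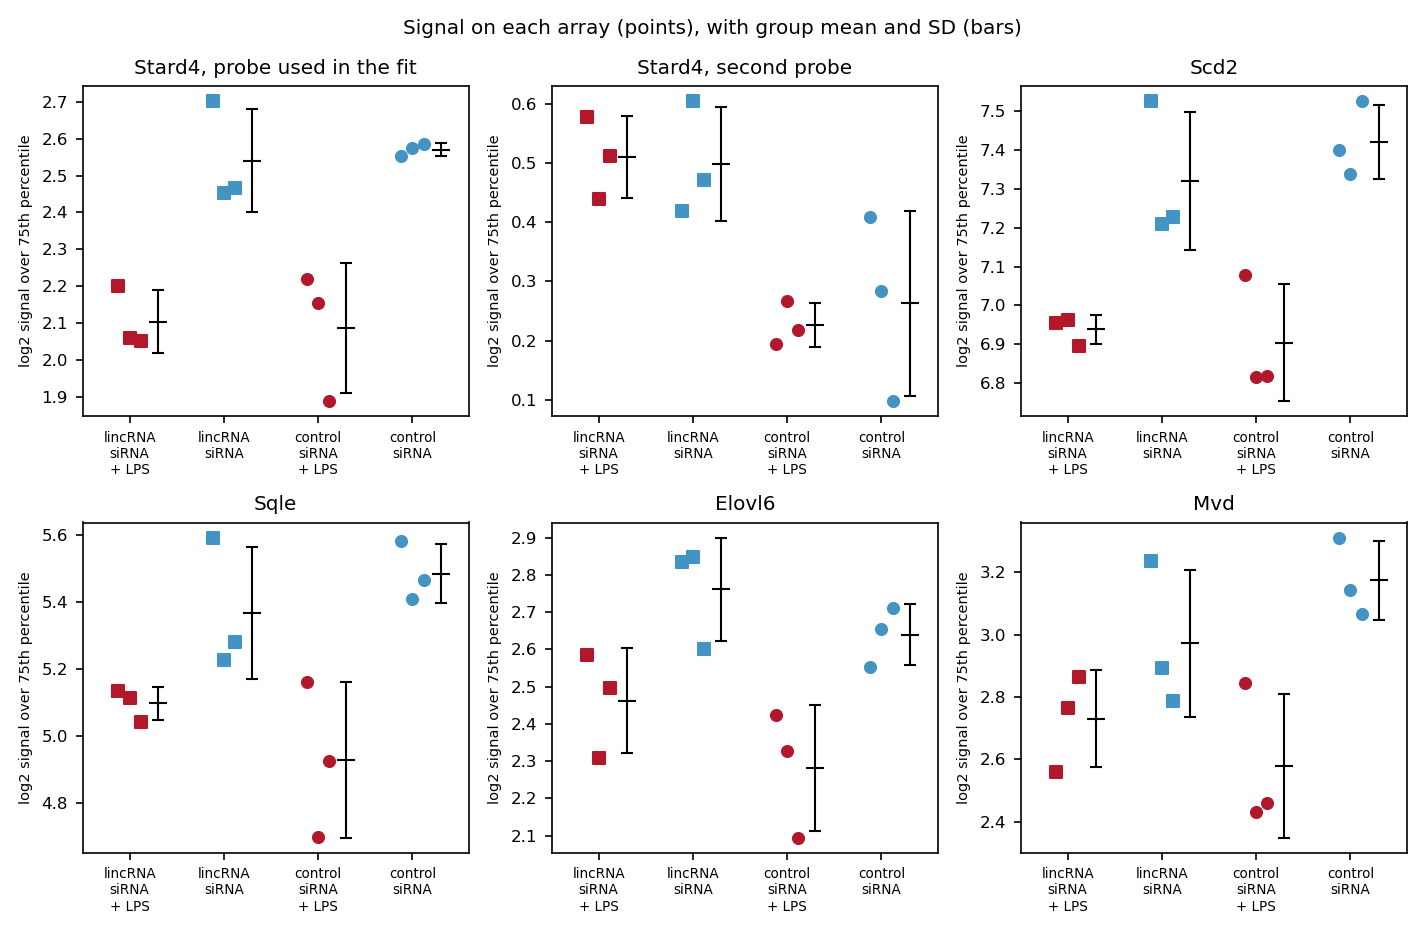
Level of Stard4 (both probes), Scd2, Sqle, Elovl6 and Mvd on each array (points, log2 signal over the array's 75th percentile; vertical axes differ and do not start at 0) in the 4 groups, with the group mean and SD (bars, 3 arrays each). Red points, with LPS, lie below blue points, without LPS, of the same siRNA in all panels but the second Stard4 probe and Mvd with the lincRNA siRNA, where they overlap.

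With the slide as a block, which rests on fewer arrays, no gene of the group passed: Scd2 changed by -0.49 (adjusted p = 0.114), Stard4 by -0.42 (0.168), Sqle by -0.38 (0.376) and Elovl6 by -0.30 (0.407). The sizes were close to those without the block, 29 of the 30 changes were negative, and the median stayed at -0.27. Leaving out 1 array at a time kept Stard4 and Scd2 past the threshold in all 12 fits, while Sqle passed in 4 of them and Elovl6 in 2. The count was 10 without control-siRNA LPS array 1, 7 without control-siRNA array 3 and 6 without lincRNA-siRNA array 3. It was 2, Stard4 and Scd2, without control-siRNA array 1 or 2, control-siRNA LPS array 2 or 3, lincRNA-siRNA array 1, or lincRNA-siRNA LPS array 1 or 2. Without control-siRNA array 3, the control-siRNA group without LPS held only the arrays of slide 1. In that fit 3670 features passed, against 1964 with all arrays. With normexp background correction 4 genes passed again, but Sqle (-0.31, adjusted p = 0.0758) and Elovl6 (-0.29, 0.121) were replaced by Mvd (-0.46, 0.0137) and Dhcr7 (-0.39, 0.0253). Without the filter on dim probes Sqle and Elovl6 did not pass (adjusted p = 0.0746 and 0.119), and Elovl6 did not with the slide as a random block (0.0600) or the replicate number as a block (0.0607).

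Grouped by step of the pathway, the genes from squalene to cholesterol had lower medians than the mevalonate, fatty acid and SREBP control genes. The 3 genes from squalene to lanosterol had a median LPS change of -0.38: Fdft1, the squalene synthase gene (-0.38, adjusted p = 0.155), Sqle, and Lss, the lanosterol synthase gene (-0.25, adjusted p = 0.0953). The 7 genes from lanosterol to cholesterol had a median of -0.37, all 7 were negative, and none passed. Cyp51, the lanosterol demethylase gene, had the largest average change of the group together with Stard4, -0.46 ± 0.15 (adjusted p = 0.0920), and a wider spread. Its probe on chromosome 5 (mm9, 4081471 to 4081530) read 0.86, 0.58 and 0.59 on the lincRNA-siRNA arrays with LPS, against 1.48, 0.89 and 0.66 without. On the control-siRNA arrays it read 0.95, 0.50 and 0.67 with LPS, against 1.49, 1.27 and 1.13 without. The control-siRNA groups did not overlap, whereas the lincRNA-siRNA groups did, and with the slide as a block the Cyp51 change was -0.29 (adjusted p = 0.787).

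The other genes of the lanosterol to cholesterol steps ranged more widely. Nsdhl, which acts in removing methyl groups from the sterol ring, changed by -0.39, and Tm7sf2, a sterol reductase gene, by -0.39. Dhcr7, whose enzyme carries out a last reduction to cholesterol, changed by -0.37 (adjusted p = 0.0737), and Sc4mol, a methyl sterol oxidase gene, by -0.33. Hsd17b7, a sterol keto-reductase gene, changed by -0.24 and Ebp, a sterol isomerase gene, by -0.08, and neither passed.

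The 7 mevalonate genes had a median LPS change of -0.20, and none passed. Besides Mvd, Hmgcs1, the HMG-CoA synthase gene, changed by -0.36 ± 0.12 (adjusted p = 0.115) and Mvk, the mevalonate kinase gene, by -0.34. Idi1, an isoprenoid isomerase gene, changed by -0.20 and Fdps, the farnesyl diphosphate synthase gene, by -0.13. Acat2, a thiolase gene, and Pmvk, the phosphomevalonate kinase gene, each changed by -0.03. The interval of Acat2 was wide, -0.43 to 0.36 (95%), and that of Pmvk narrower, -0.22 to 0.16.

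Among the 8 fatty acid genes the median LPS change was -0.27, with the 2 falls already given. Scd1, a second desaturase of the same kind as Scd2, changed by -0.24 ± 0.07 (adjusted p = 0.0707). Fads1 and Fads2, desaturases that act on polyunsaturated fatty acids, changed by -0.35 and -0.30 (adjusted p = 0.155 and 0.0952), though a second Fads2 probe gave 0.03. Fasn, the fatty acid synthase gene, changed by -0.18. Acly and Acaca, which supply acetyl-CoA and malonyl-CoA at the head of the pathway, each changed by 0.01, with 95% intervals of -0.16 to 0.18 and -0.18 to 0.19.

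The 4 genes that control SREBP had a median LPS change of -0.08, and none passed. Insig2 changed by -0.20, Scap by -0.13 and Insig1 by -0.04. Srebf2, which encodes the SREBP that acts mainly on sterol genes, changed by 0.24 ± 0.26 (95% interval -0.34 to 0.81), the only value of the group above 0.01. Its single arrays ranged from 1.45 to 2.98, and with the slide as a block its change was -0.10. For 12 of the 30 genes more than 1 probe was measured, and the averaged LPS change had the same sign for all probes of 9 of them. Pmvk, Acaca and Fads2 were the exceptions. A shared sign was not always a shared size, as the 2 Stard4 probes gave -0.46 and -0.01. The 4 Acaca probes ran from -0.01 to 0.32.

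**Figure D3:**
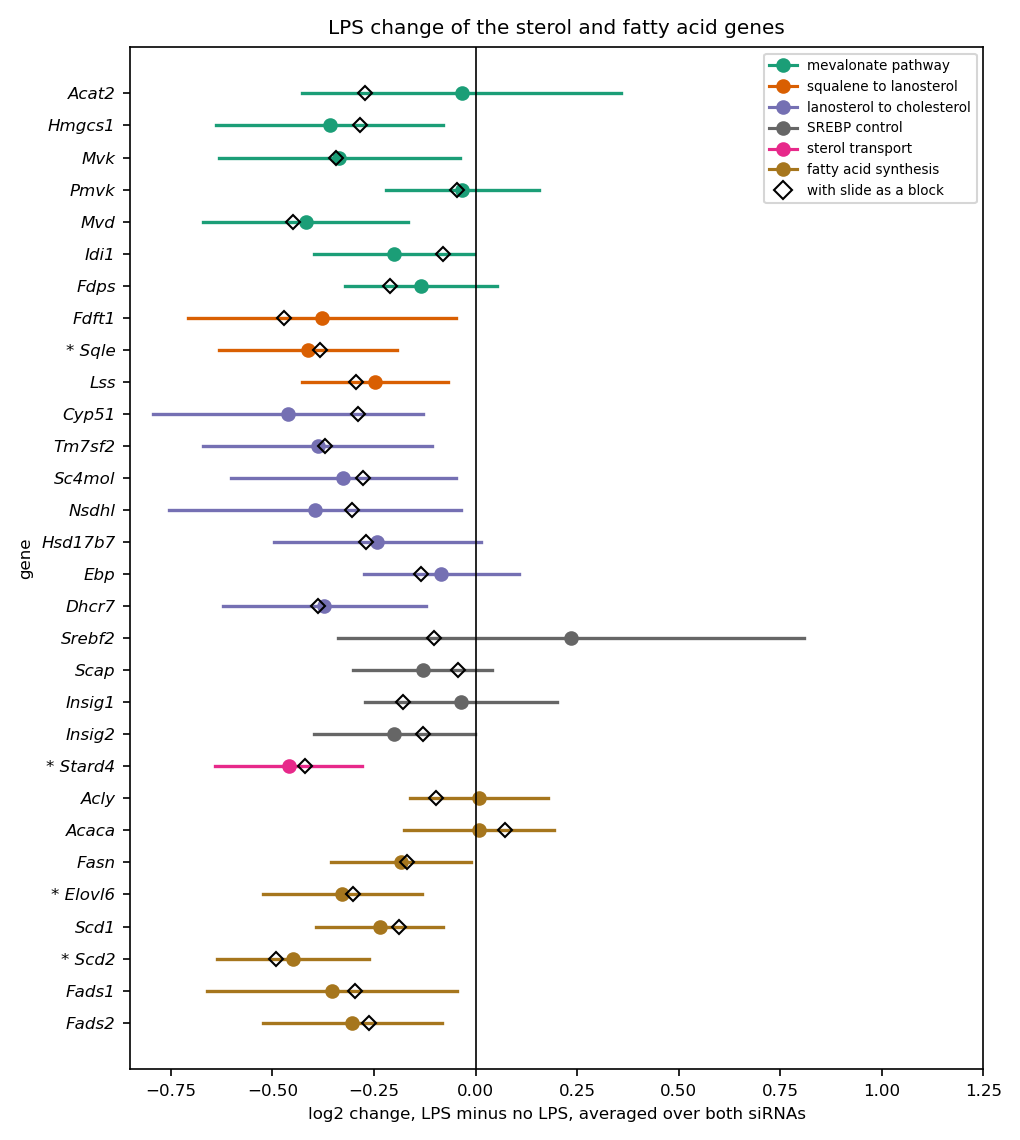
Change with LPS averaged over both siRNAs (log2, LPS minus no LPS) for the 30 genes in pathway order, with 95% intervals (lines, 6 arrays against 6), colours for the pathway step and open diamonds for the change with the slide as a block. Genes marked with an asterisk passed the threshold, and all but Srebf2, Acly and Acaca lie below 0.

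LPS was next compared within each siRNA. In control-siRNA cells 2 of the 30 genes fell, Scd2 by 0.52 ± 0.12 (log2, SE, 3 arrays against 3, adjusted p = 0.0359) and Stard4 by 0.48 ± 0.11 (adjusted p = 0.0405). That is 6.67% of the group, against 1.89% of features lower, 3.26% higher and 5.15% in either direction. Sqle at -0.55 and Lss at -0.46 missed the threshold narrowly, Sqle with an adjusted p just over it and Lss with 0.0502. At an unadjusted p under 0.05, 16 of the 30 were lower, against 10.6% of features. On 16 of the 30 genes all 3 LPS arrays lay below all 3 arrays without LPS, against 15.3% of features, and 28 changes were negative, against 44.1%. The median change was -0.33, against 0.06 over all features. With the slide as a block the changes of Scd2 and Stard4 were -0.62 and -0.50, but these rest on control-siRNA array 3 alone against the 3 LPS arrays. The second Stard4 probe changed by -0.04, and the mean of both Stard4 probes by -0.26, which did not pass (adjusted p = 0.121). With normexp Stard4 passed and Scd2 did not (-0.47, adjusted p = 0.0566), while Mvd did (-0.59, 0.0351). Without the filter on dim probes neither Scd2 nor Stard4 passed (adjusted p = 0.0932 and 0.104), and with the slide as a random block Stard4 did not (0.0598). Both were lost without any 1 of control-siRNA arrays 1 and 2, control-siRNA LPS arrays 2 and 3, lincRNA-siRNA arrays 2 and 3, or the 3 lincRNA-siRNA LPS arrays. The count, in contrast, was 8 without control-siRNA array 3, 7 without control-siRNA LPS array 1 and 4 without lincRNA-siRNA array 1. Without control-siRNA array 3, slide 1 was compared with slide 2, so LPS and slide cannot be told apart. In that fit 3975 features passed, against 1231 with all arrays.

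In lincRNA-siRNA cells none of the 30 genes passed, where 1.85% of features did, 0.347% as lower and 1.51% as higher. At an unadjusted p under 0.05, 3 of the 30 were lower, against 5.07% of features, and 10.2% of features passed in either direction. The 3 were Stard4 at -0.44 ± 0.11 (adjusted p = 0.125), Scd2 at -0.38 ± 0.12 (adjusted p = 0.225) and Elovl6 at -0.30 ± 0.12 (adjusted p = 0.434). The median of the group was -0.17, against -0.01 over all features, and 27 changes were negative, against 51.7%. Without lincRNA-siRNA array 1 the median was -0.079 and 23 were negative. On 7 genes the LPS arrays all lay below the others, against 7.52% of features: Sqle, Tm7sf2, Ebp, Stard4, Elovl6, Scd1 and Scd2.

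The difference between those responses was tested by the interaction, in which no feature passed (0%) and so none of the 30 genes. At an unadjusted p under 0.05 it held 3.75% of features and 1 gene of the group, Lss. Lss changed with LPS by -0.04 in lincRNA-siRNA cells and by -0.46 in control-siRNA cells, a difference of 0.42 (95% interval 0.06 to 0.78, adjusted p = 0.891). The median difference was 0.14, against -0.04 over all features, and 7 of the 30 were negative, against 55.4%. That median was 0.079 without control-siRNA LPS array 3, 0.087 without lincRNA-siRNA array 3, 0.211 without control-siRNA LPS array 1 and 0.223 without lincRNA-siRNA array 1. For the genes that fell on average the intervals were wide: -0.31 to 0.41 for Stard4, -0.24 to 0.51 for Scd2, -0.15 to 0.72 for Sqle and -0.33 to 0.45 for Elovl6.

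**Figure D4:**
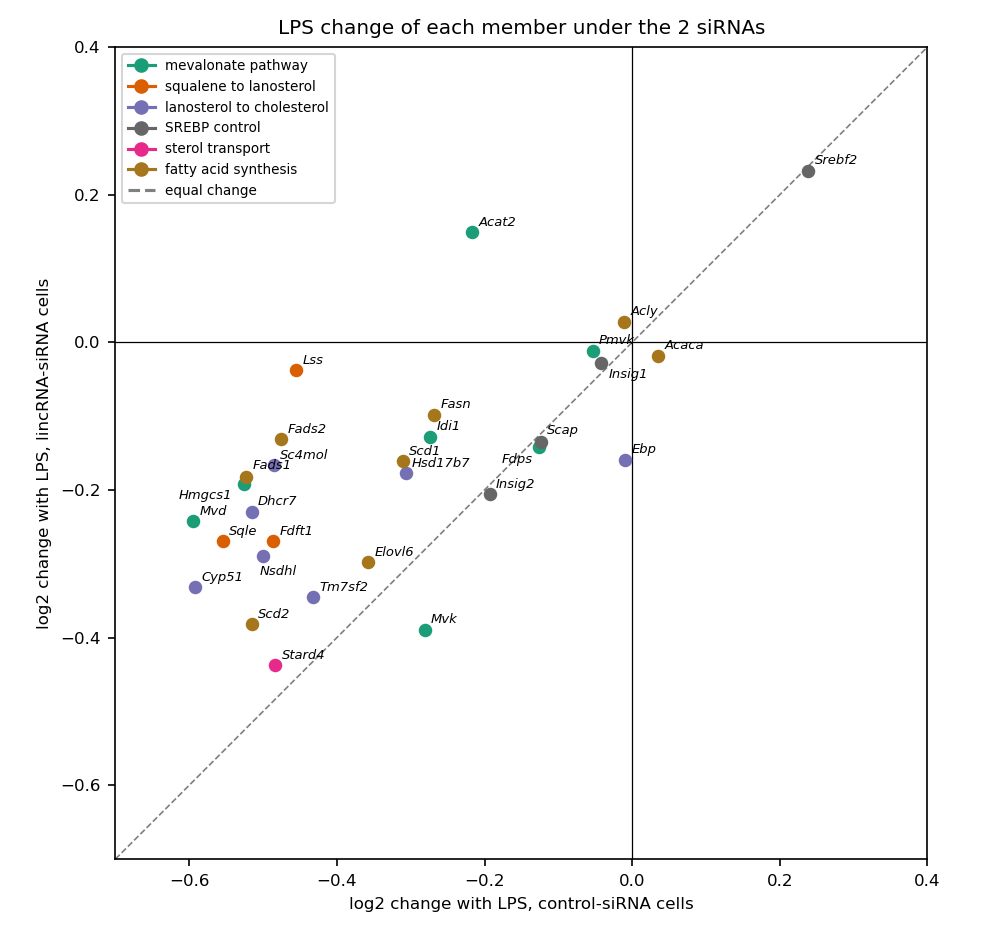
Change with LPS (log2) in lincRNA-siRNA cells (vertical axis) against control-siRNA cells (horizontal axis) for the 30 genes, coloured by pathway step; the dashed line marks equal change. Stard4 (-0.44 and -0.48), Scd2 (-0.38 and -0.52) and Elovl6 (-0.30 and -0.36) lie near the line and Lss (-0.04 and -0.46) above it, and no difference from the line passed the test.

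The lincRNA siRNA itself was compared with the control siRNA in each LPS state. No gene of the 30 passed, and no feature did in either state (0%); averaged over LPS states 0.155% of features passed, and again none of the 30. With LPS the median difference was 0.03, against 0.02 over all features; it was -0.022 without control-siRNA LPS array 3 and 0.133 without control-siRNA LPS array 1. In the same comparison, at an unadjusted p under 0.05 only Dhcr7 was counted, where 4.64% of features were. Dhcr7 read 0.50, 0.69 and 0.97 with the lincRNA siRNA and LPS, against 0.10, 0.43 and 0.38 with control siRNA and LPS. Those groups did not overlap, and the difference was 0.42 (95% interval 0.06 to 0.77, adjusted p = 0.976). The lincRNA-siRNA values 0.69 and 0.97 came from slide 3, whereas 0.50 and all the control-siRNA values with LPS came from slide 2. Dhcr7 and Acly were the only genes higher without overlap, against 7.15% of features, and none was lower without overlap, against 4.29%. Without LPS the Dhcr7 values were 0.81, 1.08 and 0.96 with the lincRNA siRNA, against 1.03, 0.80 and 0.63 with control siRNA, and those groups overlapped. Without LPS the median difference of the 30 genes was -0.12, against 0.07 over all features, and -0.199 without lincRNA-siRNA array 1. Ebp (0.28) and Fads2 (-0.32) were counted at that unadjusted level, where 18.5% of features were. Their adjusted p-values were 0.259 and 0.263. A second Fads2 probe gave 0.06, the opposite sign. Of the control-siRNA arrays without LPS, only array 3 shared slide 2 with the lincRNA-siRNA arrays without LPS. On that slide Ebp read 5.42, 5.52 and 5.52 with the lincRNA siRNA, against 5.39 with control siRNA. Fads2 read 1.46, 1.37 and 1.15 there, against 1.46. Of the 30 differences 21 were negative, against 41.7% of features. Acat2, Lss and Fads2 (on the probe used) were lower without overlap, against 9.22% of features, and Ebp and Acaca higher, against 12.2%.

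Averaged over LPS states, 19 of the 30 siRNA differences were negative, against 42.2% of features. At an unadjusted p under 0.05, 4 genes were counted, where 17.3% of features were: Dhcr7 (0.27, adjusted p = 0.271), Insig1 (0.24, 0.284), Ebp (0.21, 0.273) and Acaca (0.20, 0.278). None of the 30 separated the 6 arrays of each siRNA, against 0.298% of features lower and 0.899% higher. Stard4 differed between siRNAs by 0.02 with LPS (95% interval -0.24 to 0.27) and by -0.03 without (-0.29 to 0.23) on the probe used. The second Stard4 probe differed by 0.28 with LPS, by 0.24 without and by 0.26 averaged, and none of these passed (adjusted p over all probes kept = 0.966, 0.277 and 0.184).

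To follow the group from array to array, each gene was centred on its own mean over the 12 arrays and the 30 values of an array were averaged. The average was -0.11, -0.11 and -0.04 on the lincRNA-siRNA arrays with LPS, against 0.22, 0.04 and -0.02 on those without. It was -0.00, -0.22 and -0.24 on the control-siRNA arrays with LPS, against 0.20, 0.13 and 0.15 on those without. Within each siRNA all LPS arrays were lower than all arrays without LPS, but control-siRNA LPS array 1 lay above lincRNA-siRNA array 3. Array 1 stood above the other 2 arrays in both of the groups that spread most: on control-siRNA LPS array 1 and on lincRNA-siRNA array 1, 25 of the 30 genes were above their group mean. The 3 squalene to lanosterol genes averaged 0.01, -0.36 and -0.37 on the control-siRNA arrays with LPS. The average of the 4 SREBP control genes stayed between -0.10 and 0.14 on all arrays. Srebf2, 1 of the 4, ranged more widely by itself, with uncentred levels from 1.45 to 2.98.

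**Figure D5:**
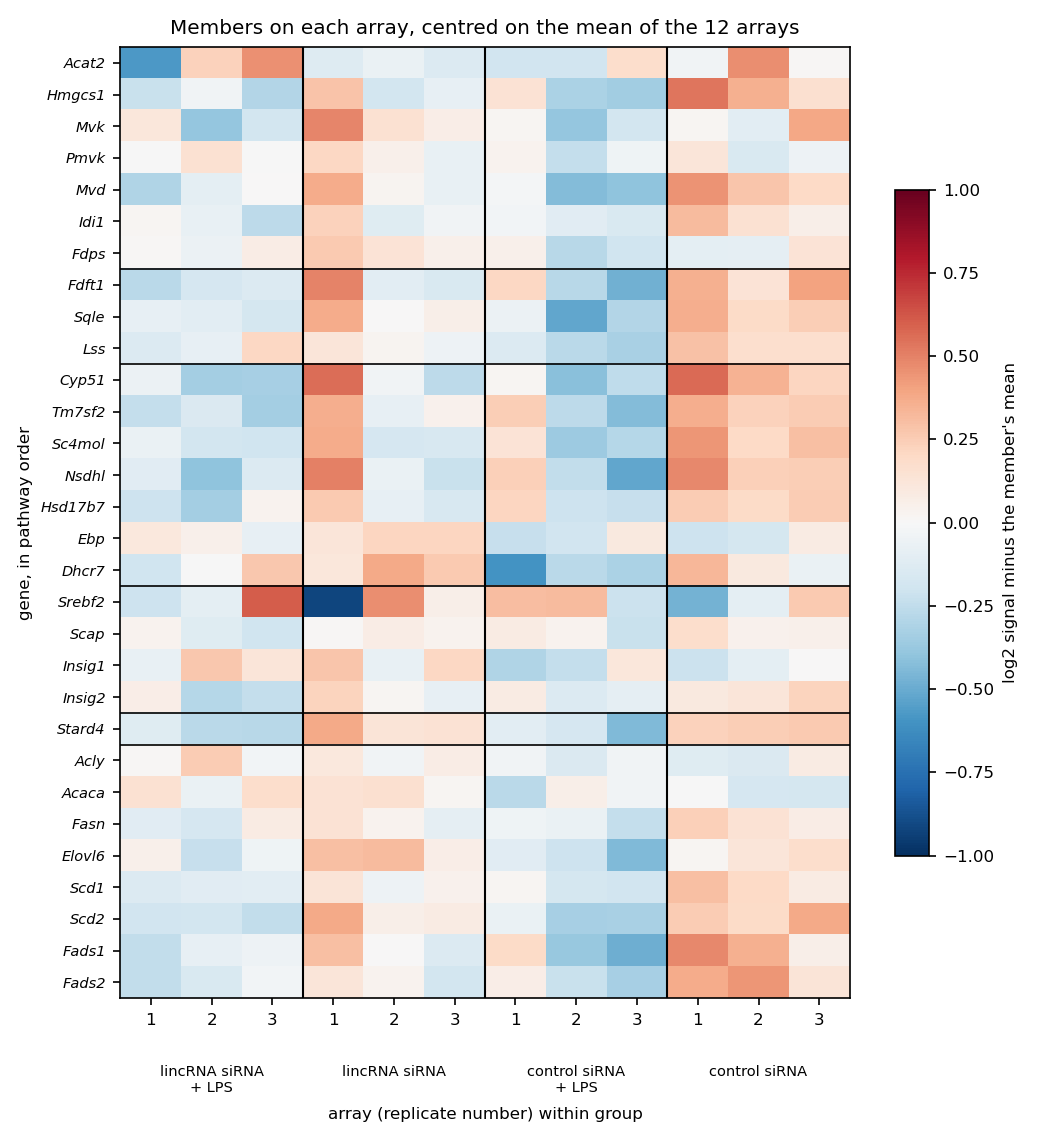
Level of the 30 genes (rows, in pathway order) on the 12 arrays (columns, grouped), as log2 signal minus the gene's mean over all arrays, with red above and blue below it. Most sterol and fatty acid rows are red on the control-siRNA arrays and on lincRNA-siRNA array 1, and blue on control-siRNA LPS arrays 2 and 3.

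Other genes of these pathways were counted from lists of genes outside the group. Of 28 other sterol and SREBP genes, 27 were measured, and with LPS averaged over both siRNAs 3 fell, Erlin1 and Npc1 among them, and 1 rose, with a median of -0.09. Erlin1, which encodes a cholesterol-binding protein of the endoplasmic reticulum, changed by -0.39 ± 0.09 (adjusted p = 0.0269). Npc1, which exports cholesterol from late endosomes, changed by -0.30 ± 0.07 (adjusted p = 0.0301). Stard3, a sterol carrier of late endosomes and a relative of Stard4, rose by 0.45 ± 0.09 (adjusted p = 0.0116). Srebf1, which encodes the SREBP that acts mainly on fatty acid genes, changed by -0.06 (adjusted p = 0.794) and did not pass. Ch25h, the cholesterol hydroxylase gene, was well above background on 1 array and was not tested.

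Of 30 other fatty acid genes, 27 were measured, 1 fell and none rose, with a median of -0.11. Lpin1, which encodes a phosphatidate phosphatase of glycerolipid synthesis, changed by -0.68 ± 0.08 (adjusted p = 0.000773), more than any of the 30 genes. In control-siRNA cells Lpin1 (-0.87, adjusted p = 0.00238) and Npc1 (-0.47, adjusted p = 0.0279) fell and Stard3 rose (0.54, adjusted p = 0.0353). In lincRNA-siRNA cells, and in each comparison of the siRNAs, no gene of these lists passed.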

How the data were processed

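Gene expression was measured on 12 one-colour Agilent arrays. The authors deposited spot intensity values from Agilent Feature Extraction 10.7.1.1, corrected within each array by spatial and multiplicative detrending, with no separate background correction, per the file headers, with probe positions on mm9. The value matrix from the authors, read as log2 because it followed the log2 signal of its own array, had a common median of 4.75 per array, while the sources used here do not name its normalization. These deposited values served as an alternative.

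From the deposited intensity, log2 signal minus the array's 75th percentile was computed, without control spots and outlier spots (104 to 258 per array; 0 saturated). A probe was kept if every array of some group had it well above background (33132, 59.5%), and the probe with the highest mean stood for a gene. All 12 arrays entered a single model of 4 group means (8 residual degrees of freedom) in limma 3.58.1 in R 4.3.3 and data.table (version 1.17.8), with Benjamini-Hochberg adjustment over 23890 features and a threshold of 0.05. The fit was tested on simulated data. Accessions of 26582 probes matched RefSeq GRCm38.p6, used for names and promoters. Figures used Python 3.11.15 and matplotlib 3.10.9.

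All 30 genes are named; values on every array are given for those that passed and for the 3 largest average changes (Cyp51, Stard4, Scd2), with Dhcr7 and Mvd added after their values were seen. Other pathway genes are named where they passed, at most 5 a contrast, besides Srebf1 and Ch25h, which were chosen afterwards; some genes of these lists are not reported here. The genes and lists were chosen with earlier results of these data known. Alternatives were normexp background correction, quantile normalization, the authors' values, no filter, the mean of a gene's probes, the slide as a block (fixed, random, or slide 2 alone), the replicate number as a block, and leaving out each array. The 3 arrays per group limit the precision.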

Additional observations from a re-analysis of the deposited data

How the results depend on the processing

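Of 4410 values of single genes under an alternative, 4030 kept direction and side of the threshold. Another 59 lost their call, 41 gained one, and 280 changed sign without ever passing. None that passed changed sign. Most of the 4410 had no call to lose, and the 59 losses fell on LPS in control-siRNA cells (27) and averaged over both siRNAs (32). Of 21 alternatives, the control-siRNA call held in 8 for Scd2 and in 7 for Stard4. The averaged call held in 19 for Stard4, 19 for Scd2, 9 for Sqle and 5 for Elovl6. For LPS averaged over both siRNAs, the counts of features and of the 30 genes were 1964 and 4; they were 1246 and 2 without the filter on dim probes, 530 and 0 with the slide as a block, 274 and 0 on slide 2 alone, and 1215 to 3670 and 2 to 10 with 1 array left out. For LPS in control-siRNA cells they were 1231 and 2; they were 715 and 0 without the filter, 233 and 0 with the slide as a block, 42 and 0 on slide 2 alone, 537 to 3975 and 0 to 8 with 1 array left out, and 1 gene passed with the slide as a random block. For LPS in lincRNA-siRNA cells 443 features passed, 158 with the slide as a block, 45 on slide 2 alone and 246 to 470 with 1 array left out. The fits with the slide as a block and on slide 2 alone rest on fewer arrays, and slide and group cannot be told apart for control-siRNA arrays 1 and 2 and for lincRNA-siRNA LPS arrays 2 and 3; the cause of the lost calls was not tested.

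For the lincRNA siRNA without LPS, 0 features passed at the adjusted threshold in limma and 18.5% at an unadjusted p under 0.05; the count was 3 with normexp, 2 with the mean of a gene's probes, 1 with the slide as a block, and 0 to 2608 with 1 array left out. With LPS it was 0 (4.64% unadjusted) and 2 with the slide as a block, and the median difference of the 30 genes, 0.03, was -0.022 to 0.133 with 1 array left out. Averaged over LPS states it was 37, 0 without the filter, with the slide as a block or on slide 2 alone, 22 with the slide as a random block, and 0 to 1625 with 1 array left out. The interaction had 0 (3.75% unadjusted) and 0 to 358. The highest counts without LPS, averaged and for the interaction all came without control-siRNA array 3, and without lincRNA-siRNA array 1 the first 2 were 133 and 214. Without control-siRNA array 3, that group held only the arrays of slide 1. None of the 30 genes passed in these comparisons under any alternative.

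The labels give the groups the same replicate numbers. Deviations of the 18 same-numbered pairs of arrays correlated at -0.30 to 0.47 with a median of 0.09, and 8 exceeded 0.1. The 36 differently numbered pairs correlated at -0.47 to 0.47 with a median of 0.02, and 14 exceeded 0.1. The ranges were alike at the upper end, so the numbers were not taken as pairs. With a replicate block 5 of the 30 genes passed in control-siRNA cells and 5 on average (1575 and 2292 features), 0 in lincRNA-siRNA cells, and 20 features for the siRNA averaged over LPS states. The 5 on average were Cyp51, Sc4mol, Scd2, Sqle and Stard4.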
